A study of Drosophila melanogaster with 2 samples.

Results

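Aminoacyl-tRNA synthetase genes were examined for binding of the ETS-family transcription factor Ets98B in *Drosophila melanogaster* pupae. Members were the protein-coding genes of the Ensembl annotation whose symbol ends in a 3-letter amino acid code followed by RS, with or without the ending -m. The rule found 35 of 13968 protein-coding genes on the main chromosome arms. Of these, 20 carry no -m ending and are called cytosolic here, and 15 end in -m and are called mitochondrial. The rule uses names only, and no measured value entered it. Between them the 35 genes cover all 20 amino acids. GluProRS, alpha-PheRS and beta-PheRS match only because other letters may precede the amino acid code; 32 genes would match from the first letter of the name.

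The study measured chromatin immunoprecipitation with sequencing (ChIP-seq) in 1 group of 2 biological replicates. The flies were of strain Ets98B-GFP, a transgenic line with an insertion that tags Ets98B with eGFP. Whole pupae aged 2 days were used, and the tagged protein was precipitated with an antibody against GFP from chromatin sonicated to 200 to 800 bp. No untagged, input or other control sample was analysed here, so all comparisons are between genes within these libraries. Whole pupae mix many tissues, and strong binding in few cells and weak binding in many cannot be told apart.

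Aminoacyl-tRNA synthetases join each amino acid to its matching transfer RNA and so supply the ribosome with charged tRNAs. Animal cells run this step separately in the cytosol and in mitochondria. Many mitochondrial enzymes come from nuclear genes of their own, while some synthetases serve both compartments from the same gene. ETS factors are transcription factors whose DNA-binding domain recognises a short core, GGAA or in some sites GGAT, on either strand.

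A gene was counted as carrying a TSS peak when a peak summit lay within 500 bp of the transcription start site (TSS) of any of its transcripts. The main list was the authors' conservative list of 7157 peaks, which passed a threshold on the irreproducible discovery rate (IDR). IDR measures how well the ranks of peaks hold between replicates or partial data sets, and the lowest score in the list, 830, corresponds to an IDR of 0.01. Signal values are those deposited for each peak, on a scale that no source used here states.

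The DNA under the summits is shown for the 6 strongest TSS peaks of synthetase genes whose window lies clear of annotated exons and could be shown. Each sequence is 101 bp centred on the summit, 5′ to 3′ on the strand of the synthetase gene, from the RefSeq Release 6 reference assembly with dm6 coordinates. Capitals mark GGAA or GGAT cores on either strand, so that TTCC marks a core on the other strand. The windows are GluProRS at chr3R:23958489-23958589 on the minus strand, IleRS at chr3L:22288444-22288544 on the plus strand, ThrRS at chr2L:12103516-12103616 on the plus strand, ArgRS-m at chr3R:7886848-7886948 on the plus strand, AsnRS at chr2L:19131967-19132067 on the minus strand, and the internal peak of GluProRS at chr3R:23955532-23955632 on the minus strand.
GluProRS: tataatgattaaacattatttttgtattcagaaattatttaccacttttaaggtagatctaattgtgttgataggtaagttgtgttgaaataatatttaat
IleRS: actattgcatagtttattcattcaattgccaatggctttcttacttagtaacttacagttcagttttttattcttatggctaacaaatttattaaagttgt
ThrRS: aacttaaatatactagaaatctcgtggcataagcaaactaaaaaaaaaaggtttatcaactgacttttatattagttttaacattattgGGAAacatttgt
ArgRS-m: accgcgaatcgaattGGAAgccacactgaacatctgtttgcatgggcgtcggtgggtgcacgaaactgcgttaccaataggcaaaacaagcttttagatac
AsnRS: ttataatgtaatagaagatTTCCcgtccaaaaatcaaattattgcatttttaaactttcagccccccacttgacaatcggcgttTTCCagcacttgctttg
GluProRS internal: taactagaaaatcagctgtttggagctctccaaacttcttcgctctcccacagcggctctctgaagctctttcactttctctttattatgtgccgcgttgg

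ThrRS and ArgRS-m held 1 core each and AsnRS held 2. Both GluProRS windows and the IleRS window held none. The GluProRS window of the strongest peak is a run of AT-rich sequence with 20.8% GC, the lowest of the 11 member windows. The ArgRS-m window, with 48.5% GC, had the highest.

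In the conservative list 10 of the 35 synthetase genes carried a TSS peak, 28.6% (95% Wilson interval 16.3 to 45.1), against 21.4% of all protein-coding genes. Their median signal value was 123, against 143 over the 2995 protein-coding genes with a TSS peak. The value of all genes lies inside the interval, which with 35 genes is too wide to show that the shares are alike. Among cytosolic genes 7 of 20 carried a peak, 35.0% (18.1 to 56.7), against 3 of 15 mitochondrial genes, 20.0% (7.05 to 45.2). The intervals of the 2 classes overlap widely, and the difference between them was not tested. Cytosolic genes with a peak had a median signal value of 229, against 78.3 for mitochondrial ones. The size of that gap depends on the list. In replicate 1's thresholded list the medians were 139 for 7 cytosolic and 55.1 for 2 mitochondrial genes. In that of replicate 2 they were 95.5 for 7 cytosolic genes and 41.7 for 1 mitochondrial gene. In the authors' other series-level thresholded list the median was 108 for cytosolic and 77.6 for mitochondrial genes. In their ranked list without the threshold it was 81.1 for cytosolic and 74.0 for mitochondrial genes. These 2 lists add genes with weaker summits. The signal ranges in the conservative list overlapped as well, at 96.6 to 393 in cytosolic genes and 76.8 to 137 in mitochondrial genes.

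**Figure D1:**
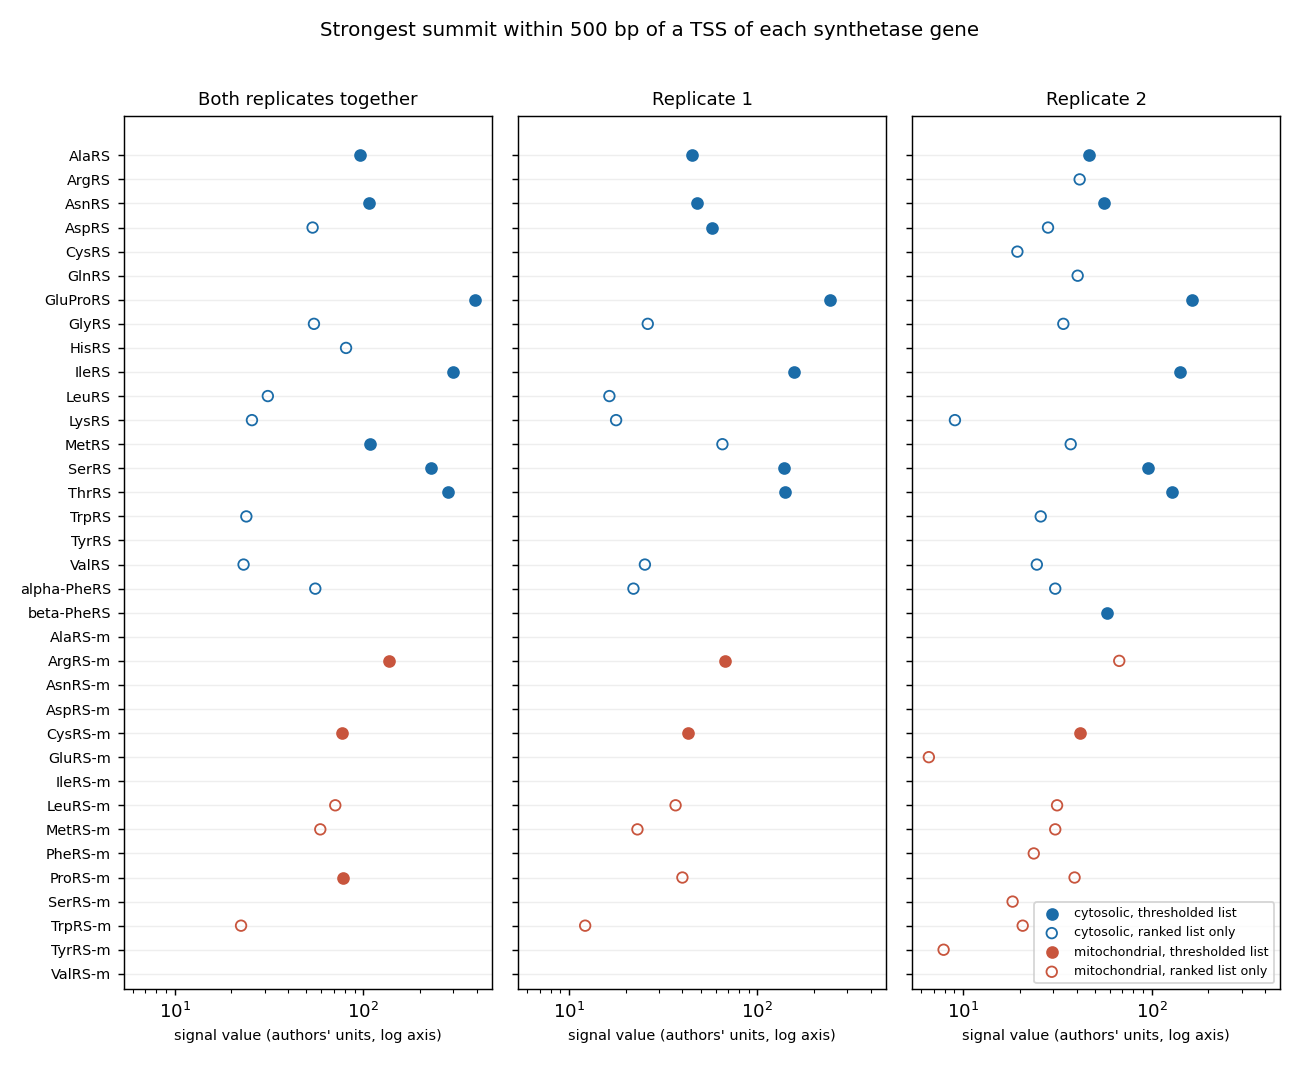
Signal value (x axis, logarithmic, authors' units) of the strongest summit within 500 bp of a TSS for each of the 35 synthetase genes, cytosolic genes above mitochondrial ones. Filled points are in a thresholded list and open points in a ranked list only. In the panel of both replicates together GluProRS, IleRS, ThrRS and SerRS stand at 229 to 393, and the other filled points lie at or below 137.

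In the other series-level thresholded list 13 of 35 synthetase genes carried a TSS peak, 37.1% (23.2 to 53.7), against 25.3% of all genes. These were the same 10 with AspRS, HisRS and LeuRS-m added, 9 cytosolic and 4 mitochondrial genes. In the replicates' own thresholded lists the cytosolic count was 7 of 20 in both replicates. Mitochondrial genes numbered 2 of 15 in replicate 1 and 1 of 15 in replicate 2. As shares, cytosolic genes averaged 35.0% ± 0 and mitochondrial genes 10% ± 4.71 (SD, n = 2). The SD of 0 reflects equal counts and not the same genes. The replicates shared 6 cytosolic genes, to which replicate 1 added AspRS and replicate 2 added beta-PheRS. The conservative list had those 6 and MetRS, which was in neither replicate's thresholded list. Synthetase genes as a whole were at 25.7% in replicate 1 and 22.9% in replicate 2. All protein-coding genes were at 17.8% in replicate 1 and 23.8% in replicate 2. The synthetase genes therefore stood above all genes in replicate 1 and slightly below them in replicate 2.

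**Figure D2:**
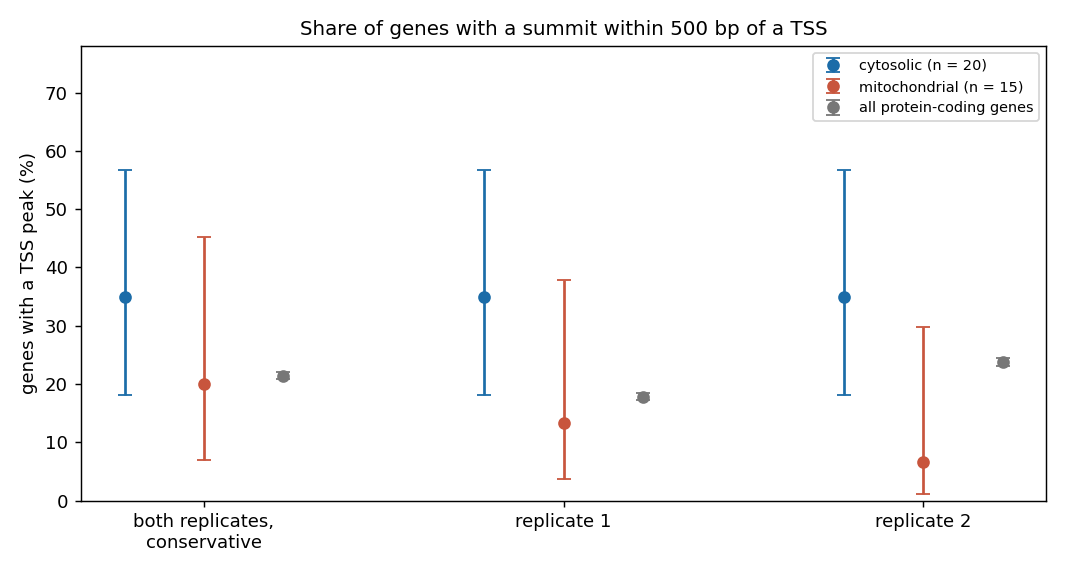
Percentage of genes with a summit within 500 bp of a TSS (y axis) in the conservative list and in each replicate's thresholded list, for cytosolic synthetase genes, mitochondrial synthetase genes and all protein-coding genes. Points are shares and bars are 95% Wilson intervals. Cytosolic genes sit at 35.0% in all 3 lists, though not through the same genes, while mitochondrial genes run between 6.67% and 20.0%.

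The strongest synthetase peak lay at GluProRS, which encodes the fused enzyme that charges both glutamate and proline tRNAs in the cytosol. It spans chr3R:23958384-23958660 and has a signal value of 393, rank 604 of the 7157 peaks. The replicate lists gave it 242 in replicate 1 and 164 in replicate 2, a mean of 203 ± 54.5 (SD, n = 2), and its score was 1000 in both. Its summit lies in intergenic DNA 148 bp upstream of the first TSS of GluProRS and 112 bp upstream of the oppositely transcribed AP-1sigma, which encodes a subunit of a clathrin adaptor. The annotation has 2 transcripts of GluProRS, with coding sequences of 1714 and 996 codons. The shorter one starts inside the gene, and a weaker peak at chr3R:23955392-23955771 has its summit 83 bp upstream of that internal TSS, outside annotated exons. This second peak had a signal value of 103. It was seen at 30.7 in replicate 1, with a score of 321 and not in the thresholded list, and at 70.3 in replicate 2, with a score of 1000. Its ratio of replicate 1 to replicate 2 signal, 0.437, was the lowest of the 11 member peaks.

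IleRS, the isoleucine enzyme, had a peak of signal value 300.1 at chr3L:22288395-22288596. Replicate 1 gave 156 and replicate 2 gave 142, the closest match among the 4 strongest sites together with ThrRS (ratio 1.09 for each). The summit lies 171 bp upstream of IleRS and 299 bp upstream of Hem, which encodes a subunit of the actin-regulating WAVE complex. ThrRS, the threonine enzyme, had a peak of 283 at chr2L:12103454-12103684, with 140.2 in replicate 1 and 128 in replicate 2. That summit lies 185 bp upstream of ThrRS and 281 bp upstream of Patsas, a predicted palmitoyltransferase gene. Both sites therefore lie nearer to the synthetase gene than to its neighbour.

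SerRS, the serine enzyme, had a peak of 229 at chr2L:3037294-3037451, with 139 in replicate 1 and 95.5 in replicate 2. Its summit falls 8 bp inside SerRS and 16 bp upstream of the oppositely transcribed CG17260, taking the CG17260 start 8 bp away from that of SerRS. Another CG17260 transcript starts farther back, so that the summit also lies inside the annotated CG17260 gene. This was the only synthetase summit downstream of the TSS. AsnRS, the asparagine enzyme, had a peak of 107 at chr2L:19131827-19132206, with 47.8 in replicate 1 and 55.6 in replicate 2. The summit lies 63 bp upstream of AsnRS and 306 bp upstream of DCTN6-p27, a dynactin subunit gene. AlaRS, the alanine enzyme, had a peak of 96.6 at chr2L:8381650-8382029, with 45.1 in replicate 1 and 46.6 in replicate 2. It was the only cytosolic gene with a peak and no head-to-head neighbour. Its summit lies 76 bp upstream of AlaRS, in non-coding exon sequence of CG13392.

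MetRS, the cytosolic methionine enzyme, had a peak of 108 at chr2R:18850587-18850966, with 65.2 in replicate 1 and 37.2 in replicate 2. Its scores of 595 in replicate 1 and 741 in replicate 2 were below the threshold of 830, while its score in the conservative list was 922. The MetRS summit lies 178 bp upstream of MetRS and 67 bp upstream of CG15084.

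Of the mitochondrial genes, ArgRS-m, the arginine enzyme, had the strongest peak, 137 at chr3R:7886708-7887087. The signal was nearly equal in the replicates, 67.5 in replicate 1 and 67.3 in replicate 2. Its replicate 2 score of 263 nevertheless left it out of that replicate's thresholded list. The summit lies 147 bp upstream of ArgRS-m and 165 bp upstream of CG17816. ProRS-m, the proline enzyme, had a peak of 78.3 at chr3L:2651883-2652262, with 40.0 in replicate 1 and 39.0 in replicate 2 and scores of 708 in replicate 1 and 773 in replicate 2, below the threshold in both. Its summit lies 223 bp upstream of ProRS-m and 15 bp upstream of 2 other genes that share a start, Snup, which encodes snurportin, and CG42304. CysRS-m, the cysteine enzyme, had the weakest peak, 76.8 at chr2R:14161189-14161568. It had 42.7 in replicate 1 and 41.7 in replicate 2, with a score of 950 in both, and so passed in each. Its summit lies 117 bp upstream of CysRS-m and 51 bp upstream of O-fut1, the gene of the fucosyltransferase that modifies Notch.

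Each of the 11 peaks at the 10 genes was matched, within 100 bp of its summit, in both replicates' ranked lists. The ratio of replicate 1 to replicate 2 signal had a median of 1.02 over the 11 peaks and ran from 0.437 at the internal GluProRS peak to 1.75 at MetRS. Over all 2506 of 2839 TSS peaks with a match in both lists the median ratio was 0.851, and its 5th to 95th percentile was 0.386 to 1.57. MetRS alone among the synthetase peaks lay beyond that band. Under the stricter reading, 7 of the 10 genes were in the thresholded list of both replicates, namely AlaRS, AsnRS, CysRS-m, GluProRS, IleRS, SerRS and ThrRS. ArgRS-m was in that of replicate 1 only, and MetRS and ProRS-m were in neither. Each of the 4 strongest genes passed in both. How many of all genes with a TSS peak pass in both replicates was not counted, so these counts have no background.

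**Figure D3:**
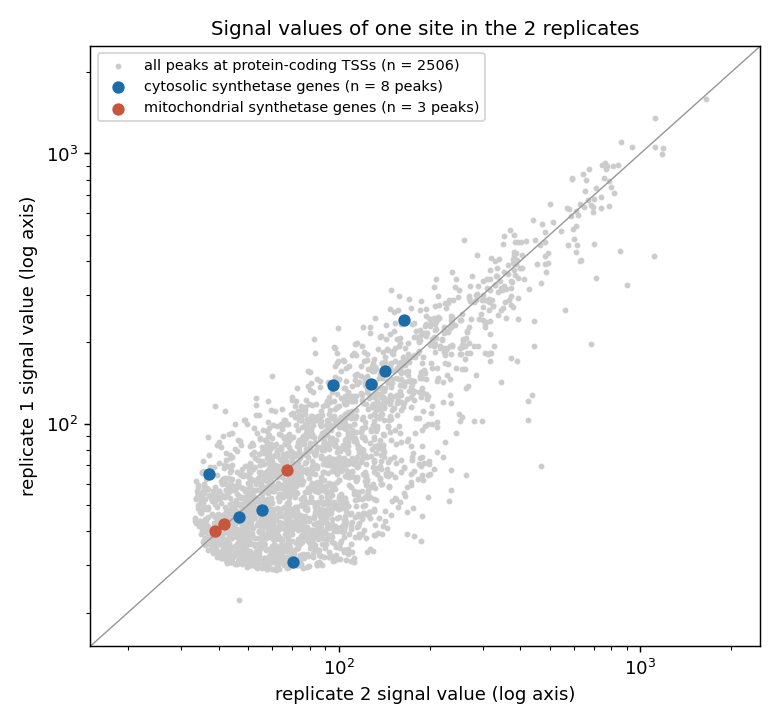
Replicate 1 signal value (y axis, logarithmic) against replicate 2 signal value (x axis, logarithmic) for the 2506 TSS peaks matched in both ranked lists (grey) and for the 11 peaks at synthetase genes (colour); the line marks equal values. Farthest from the line are MetRS above it, at 65.2 in replicate 1 and 37.2 in replicate 2, and the internal GluProRS peak below it. The internal GluProRS peak is at 30.7 in replicate 1 and 70.3 in replicate 2. The strongest GluProRS peak and SerRS also lie above the line, with ratios of 1.47 and 1.46.

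The synthetase genes are often arranged head to head, that is, with the TSS of a protein-coding gene on the opposite strand at most 1000 bp upstream. This held for 24 of 35 members, 68.6%, against 36.2% of all protein-coding genes. Cytosolic genes had such a neighbour in 17 of 20 cases (85.0%) and mitochondrial genes in 7 of 15 (46.7%). The median distance between the paired TSSs was 238 bp for synthetase genes and 298 bp for all genes. This is a property of the annotation and not of the ChIP-seq signal.

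Of the 24 head-to-head synthetase genes 9 carried a TSS peak, 37.5% (21.2 to 57.3), against 32.4% of all head-to-head genes. Of the 11 without such a neighbour 1 carried a peak, AlaRS, 9.09% (1.62 to 37.7), against 15.2% of all genes of that arrangement. Within either arrangement the interval of the synthetase genes includes the background value. With so few genes these intervals are too wide to show that the shares are alike. Among head-to-head genes the cytosolic and mitochondrial shares were 35.3% (6 of 17) and 42.9% (3 of 7), so the cytosolic share was not the higher one there. Among genes without a neighbour they were 1 of 3 and 0 of 8, and 0 of 8 carries an upper Wilson bound of 32.4%.

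The strongest summit lay upstream of the TSS in 9 of the 10 genes, against 78.3% of all genes with a TSS peak. The median distance was 148 bp upstream in synthetase genes and 106 bp in all genes. In 9 of 10 genes it fell 50 to 250 bp upstream, against 51.1% of all genes with a TSS peak. That band was not among the planned settings. It encloses every upstream synthetase summit, from 63 to 223 bp, so this contrast only describes these genes. A summit between paired TSSs is upstream of both, so position and gene arrangement are not separate here. The same 9 of 10 counts held for summits that also lay within 500 bp of a TSS on the opposite strand, against 41.9% of all genes with a peak, but the genes differ: SerRS is the exception for position and AlaRS for the shared summit. The paired TSSs of these 9 genes lie 8 to 470 bp apart, so any summit between them is within 500 bp of both. The shared count is thus not separate from gene arrangement. How often head-to-head genes with a peak share a summit was not counted. Of the 2995 genes behind the 41.9%, 1357 have no head-to-head neighbour. The peak lists do not tell which of the paired genes a shared summit belongs to. At GluProRS (strongest peak), MetRS, ProRS-m and CysRS-m the neighbour's TSS was the nearer of the pair.

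**Figure D4:**
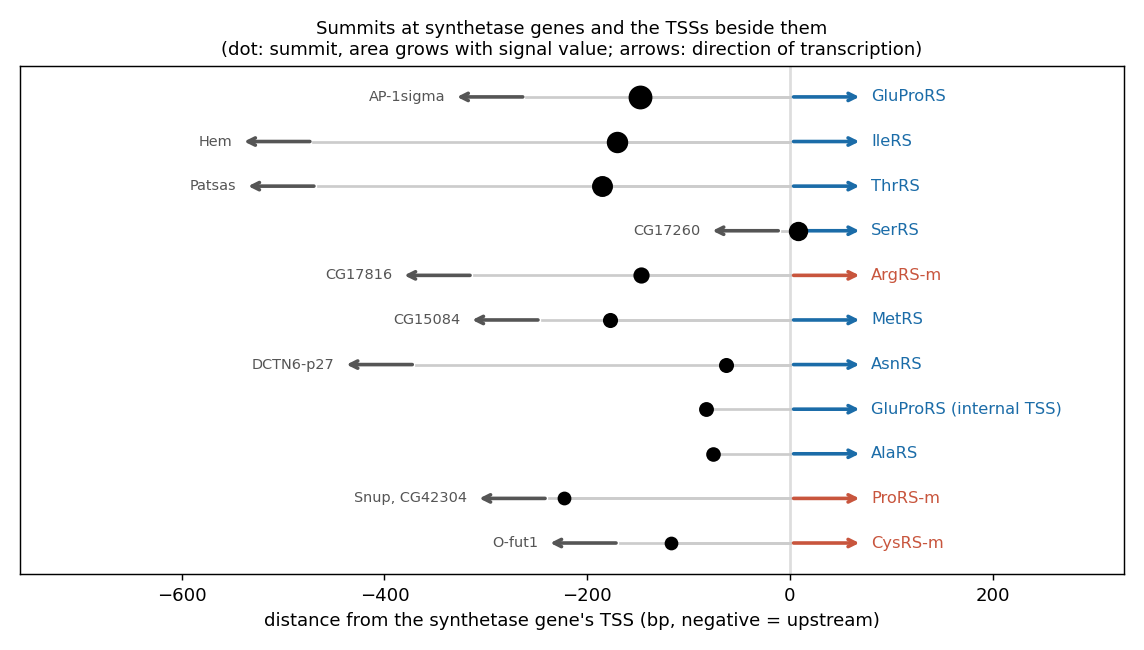
Summit position (black dot, area growing with signal value) relative to the TSS of the synthetase gene at 0 bp, with the TSS of the oppositely transcribed neighbour to the left; arrows point in the direction of transcription, blue for cytosolic and red for mitochondrial genes. Rows are ordered by signal value, and in 8 of 11 rows the summit lies between the paired TSSs.

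The other 25 synthetase genes, 13 cytosolic and 12 mitochondrial, had no conservative TSS peak. Weaker summits were looked up in the authors' ranked list from both replicates, which holds peaks without the IDR threshold. There 11 of the 25 genes had a summit at a TSS, 44.0%, against 33.3% of all protein-coding genes without a conservative TSS peak. Their median signal value was 53.9 (22.5 to 81.1), against 43.7. Counted without the threshold, 21 of 35 synthetase genes had a summit, 60.0% (43.6 to 74.4), against 47.6% of all genes. These were 15 of 20 cytosolic genes, 75.0% (53.1 to 88.8), and 6 of 15 mitochondrial genes, 40.0% (19.8 to 64.3). The cytosolic interval lies above the value of all genes, in a list that includes peaks with high IDR. No test was made.

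HisRS, the histidine enzyme, came nearest to the threshold of the conservative list, with a signal value of 81.1 and a score of 812 (IDR 0.011), at a summit 496 bp inside the gene. The summits of that site in replicates 1 and 2, at signal values of 29.1 and 44.5, lay 511 and 503 bp from the TSS and so outside the window. LeuRS-m, the mitochondrial leucine enzyme, had 71.1 (score 774, IDR 0.0136), with 36.8 in replicate 1 and 31.5 in replicate 2. The weakest scores inside the threshold were 886 at the internal GluProRS peak and 901 at ProRS-m. HisRS and LeuRS-m both passed in the other series-level thresholded list, with scores of 923 and 1000 there.

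MetRS-m had a signal value of 59.2 and a score of 609. Next came alpha-PheRS, a subunit of the cytosolic phenylalanine enzyme, at 55.7 with a score of 579, and GlyRS, the glycine enzyme, at 54.8 with a score of 583. AspRS, the aspartate enzyme, had 53.9 with a score of 284, against 843 in the other series-level thresholded list, where it passed. It passed the threshold in replicate 1, at 57.2. Replicate 2 listed no summit within 100 bp of the site with 53.9. The strongest replicate 2 summit at any AspRS TSS had 28.2 and was below the threshold. The remaining 5 had low values, 31.2 at LeuRS, 25.7 at LysRS, 24.0 at TrpRS, 23.2 at ValRS and 22.5 at TrpRS-m, with scores of at most 202.

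Another 8 genes had no summit in the ranked list of both replicates together but had one in that of replicate 2, and in none of them did replicate 1 list a summit. They were beta-PheRS, the other subunit of the phenylalanine enzyme, together with ArgRS, CysRS, GlnRS, GluRS-m, PheRS-m, SerRS-m and TyrRS-m. Only beta-PheRS passed the threshold there, with a signal value of 58.0. The others had 41.5 at ArgRS, 40.5 at GlnRS, 23.7 at PheRS-m, 19.4 at CysRS, 18.3 at SerRS-m, 7.88 at TyrRS-m and 6.58 at GluRS-m. The ranked list of replicate 2 is the longer one, with 47497 peaks against 35735 in replicate 1. It held a TSS summit for 77.1% of synthetase genes (61.0 to 87.9) and 54.4% of all genes. In replicate 1 these shares were 54.3% (38.2 to 69.5) and 47.9%. For the last 6 genes, AlaRS-m, AsnRS-m, AspRS-m, IleRS-m, TyrRS and ValRS-m, no list used here had a summit at a TSS. Of these only TyrRS is cytosolic. The share of all genes with no summit in any list was not counted. No total of reads is given, so binding below the reach of these lists was not detectable rather than absent.

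For 15 amino acids both a cytosolic and a mitochondrial gene are in the set. Proline was the only one with a TSS peak at both, through GluProRS and ProRS-m. Only the cytosolic gene had a peak for 6 amino acids, alanine, asparagine, glutamate, isoleucine, methionine and serine. The cytosolic gene for glutamate is again GluProRS, so this gene is counted for both glutamate and proline. Only the mitochondrial gene had one for arginine and cysteine. Neither gene had one for aspartate, leucine, phenylalanine, tryptophan, tyrosine and valine. Of the 5 amino acids with no -m gene in the set, threonine had a peak at its gene, and glutamine, glycine, histidine and lysine had none. By chromosome arm, the peaks lay at 4 of 6 synthetase genes on 2L, 2 of 8 on 2R, 2 of 10 on 3L, 2 of 7 on 3R and 0 of 4 on X. The corresponding shares of all protein-coding genes were alike across those arms, at 20.3% to 23.1%.

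Short words were counted on both strands in the 101 bp at the 11 summits and, for reference, at all 2839 TSS peaks. The longer words CCGGAAGT and TATCGATA contain GGAA and CGATA, and CCGGATG contains GGAT, so these counts are not separate. GGAA occurred in 6 of 11 synthetase windows (54.5%), against 50.1% of all TSS peaks. GGAT occurred in 0 of 11, against 31.2%. The longer ETS words CCGGAAGT and CCGGATG were in none of the 11 windows and in 0.176% of all TSS peaks each. The core promoter word TATAAAA was in 3 windows (27.3%), ThrRS, SerRS and AlaRS, against 7.29%. The initiator word TCAGT was in 5 (45.5%), IleRS, ThrRS, SerRS, ArgRS-m and ProRS-m, against 19.5%. CGATA was in 2 windows (18.2%), MetRS and ProRS-m, against 17.2%. CAGCTG, an E-box, was in 1 (9.09%), the internal GluProRS peak, against 6.34%. GGTCACAC, found at sites of the factor M1BP, was in 1, ProRS-m, against 1.34%. TATCGATA, the element of the factor Dref, was in none, against 2.11%. CACGTG, another E-box, was in none, against 1.09%. TTGCATCA, a word of amino acid response elements in mammals, was in none, against 0.0704%. With 11 windows a single window moves a share by 9.09 percentage points, and a match or its lack describes these letters only. At IleRS, ThrRS and ArgRS-m the window reaches neither the synthetase TSS nor the neighbour's. The TCAGT there, and the TATAAAA at ThrRS, thus lie away from both starts. The set of all TSS peaks was not matched to the synthetase windows for base composition.

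The synthetase windows were AT-rich. Their median GC content was 26.7% (20.8 to 48.5), against 40.6% at all TSS peaks. Among all TSS peaks the median GC content was lower in the groups of higher signal, at 44.6%, 44.6%, 39.6% and 31.7% in 4 equal groups of peaks by rising signal value. The 4 strongest synthetase peaks, all in the strongest of these groups, had 20.8% at GluProRS, 26.7% at IleRS, 24.8% at ThrRS and 22.8% at SerRS, each below that group's median of 31.7%. Of the 7 weaker ones, ArgRS-m (48.5%) and the internal GluProRS peak (46.5%) lay above the median of their group and the other 5 below it. What part base composition has in the signal was not tested. The promoters as a whole, 250 bp upstream to 50 bp downstream of the first TSS, differed less, with a median GC content of 34.5% in synthetase genes with a peak, 35.3% in those without and 38.0% in all genes.

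**Figure D5:**
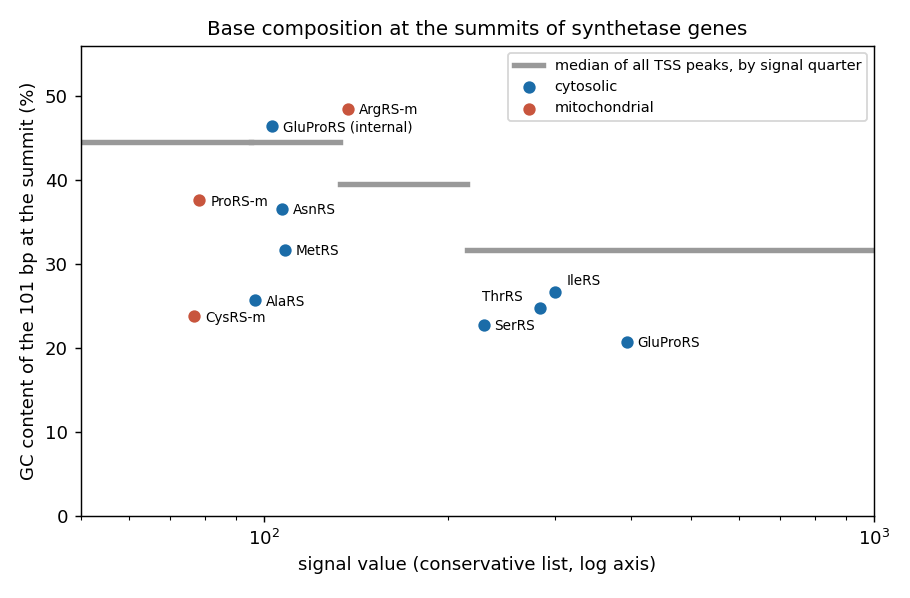
GC content of the 101 bp at the summit (y axis, percent) against signal value in the conservative list (x axis, logarithmic) for the 11 peaks at synthetase genes; grey bars are medians over all TSS peaks in 4 equal groups by signal value. ArgRS-m and the internal GluProRS peak lie above the bars, and the other 9 peaks lie below the bar of their group.

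In the 300 bp promoters of all 35 synthetase genes CAGCTG was frequent. It occurred in 17 of 35 (48.6%), against 17.6% of all promoters, and alike in cytosolic (10 of 20) and mitochondrial genes (7 of 15). It was as common in genes with a TSS peak (5 of 10) as in those without (12 of 25). CGATA was in 23 of 35 (65.7%), against 47.3%, and TATAAAA in 14 (40.0%), against 24.2%. TATCGATA and GGTCACAC were in 5 each (14.3%), against 9.36% and 7.69%. GGAA was in 33 (94.3%), against 88.0%, while GGAT was in 18 (51.4%), against 71.6%. TCAGT was in 19 (54.3%), against 51.5%. CACGTG was in 2 (5.71%), against 4.20%. TTGCATCA was in none, against 0.816%. CCGGAAGT was in none, against 0.379%, and CCGGATG in none, against 1.12%.

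Genes that act with the synthetases were taken from a list of 16, chosen with earlier results of these data known. Of these, 6 carried a TSS peak in the conservative list, 37.5% (18.5 to 61.4), against 21.4% of all genes. The strongest was at GatA, which encodes a subunit of the amidotransferase that makes mitochondrial glutaminyl-tRNA, with 423, and 194 in replicate 1 and 238 in replicate 2. Its partner subunit GatC had 67.5, with 42.9 in replicate 1 and 33.6 in replicate 2, and GatB had no summit in the lists searched, which were the conservative list and the ranked lists of both replicates together and of each replicate. The amidotransferase thus had peaks at 2 of its 3 genes, of unlike strength, while GlnRS and GluRS-m had no conservative TSS peak.

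The gene crc, which encodes the fly ATF4 factor of the amino acid stress response, had 178, with 91.6 in replicate 1. Replicate 2 had no summit within 100 bp of it, but had another of 101 within 500 bp of a crc TSS. Thor, which encodes the translation inhibitor 4E-BP, had 122, with 41.4 in replicate 1 and 86.4 in replicate 2. Of the genes for the kinases Gcn2 and PEK and their substrate eIF2alpha, none had a conservative peak. PEK had 50.5 and eIF2alpha 17.8 in the ranked list of replicate 2 only, and Gcn2 had no summit in the lists searched. Of tRNA processing genes, scu, for a subunit of mitochondrial RNase P, had 152, with 48.5 in replicate 1 and 100.2 in replicate 2. RNaseZ, for the enzyme that trims tRNA 3′ ends, had 74.1, with 41.8 in replicate 1 and 34.4 in replicate 2. At scu and Thor the value of replicate 2 was thus about 2 times that of replicate 1. The 3 scaffold genes of the multi-synthetase complex had sub-threshold summits only, at 61.0 in AIMP1, 49.3 in AIMP2 and 20.5 in AIMP3. Slimp, a relative of the serine enzyme, and the RNase P genes rswl and mldr, at 45.9 and 39.2, likewise had summits below the threshold only.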

How the data were processed

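Binding was measured by ChIP-seq in 2 replicates of 1 group, per the labels. The authors deposited peak lists on dm6, per the labels. The aligner and the caller stay unnamed, being not given in the sources used here. As deposited, each peak has a signal value from the caller. Its score, as deposited, is the IDR rescaled to reach at most 1000. Ranked lists also hold the global IDR, deposited as −log10. Per the authors' file lists, a ranked and a thresholded list exist per replicate, and other lists draw on both alignments plus 1 more file. Left unread were 16 columns of the series-level ranked lists that no label ties to a sample. Read totals are missing here, so the depth per sample is unknown. Wilson intervals cover counting error over genes only.

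Genes came from Ensembl release 115 (BDGP 6.54), with dm6 coordinates, and sequence from the RefSeq Release 6 assembly. Genes and peaks on the main chromosome arms were kept. A gene carried a TSS peak if a summit lay within 500 bp of any of its TSSs, and its value was the highest signal value there. Sites were matched between lists where summits lay within 100 bp. The step that assigns summits to genes was tested on simulated data, with summits planted within 500 bp of TSSs. That test covers the code only, not whether a peak reflects binding. Every member is named, as are genes that share a member's summit and a list of 16 genes of the pathway. Members and lists were chosen with earlier results of these data known, so counts and medians stand beside those of all genes and no p-value is given. Alternatives were another series-level list, each replicate alone, the stronger peaks only, no IDR threshold, other TSS windows and assignments, and another reading of the name rule. Python 3.11.15, pandas 2.3.3, numpy 2.4.6, scipy 1.17.1 and matplotlib 3.10.9 were used.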

Additional observations from a re-analysis of the deposited data

How the results depend on the processing

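Of 44 recomputed values, 26 stayed within 1.5 times the reported count or within 6.53 of the reported median, and 18 moved further. The 6.53 is the SD of the 2 single replicates' medians, on the scale of their own lists. It is not a spread of the reported median. Medians from single replicates, or from the stronger peaks only, are set apart by scale or selection. The tally therefore describes the changes and does not measure robustness. With 1 replicate at a time, mitochondrial genes with a peak numbered 1 to 2 and the members' median signal value was 67.5 to 76.7, on the scale of the single replicates' lists. With only peaks at or above the list's median signal value, 5 synthetase genes, 4 cytosolic and 1 mitochondrial, had a peak, with a median of 283. Without the IDR threshold the counts were 21, 15 and 6, with a median of 76.8, and in the other series-level thresholded list the median was 107 (both medians added after seeing the data). A 1000 bp TSS window moved the median to 137. Giving each summit to the nearest TSS left 1 mitochondrial gene and a median of 137, since CysRS-m, MetRS and ProRS-m then lost their peaks and GluProRS kept only its internal peak of 103. Counting any summit in a gene or within 1000 bp of it gave 16 genes, 11 cytosolic and 5 mitochondrial (45.7% of synthetase genes, against 32.1% of all genes). A limit of 500 bp between head-to-head TSSs, chosen after seeing the data, left 22 such synthetase genes, 9 with a peak (40.9%, against 35.1% of all such genes). No paired analysis was possible because there is 1 group. Unknown depth limits what an unlisted site can show.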

Other observations

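Of the 25 synthetase genes with no conservative TSS peak, 6 had 7 conservative peaks inside the gene or within 1000 bp of it. For scale, 4487 of 13968 protein-coding genes had a peak in that range, and 2995 had a TSS peak. The strongest lay 857 bp before the start of LeuRS-m, inside Dhc64C, a dynein heavy chain gene, with a signal value of 552, and 322 in replicate 1 and 238 in replicate 2. Beyond the end of alpha-PheRS a peak of 281, with 123 in replicate 1 and 143 in replicate 2, had its summit 81 bp from the TSS of CG17982. Beyond the end of GlnRS a peak of 140.4, with 75.2 in replicate 1 and 69.8 in replicate 2, lay 120 bp from the TSS of CG11858. Inside AspRS a peak of 77.2, with 30.8 in replicate 1 and 43.8 in replicate 2, lay 91 bp from a TSS of the overlapping gene Nmda1, which encodes a glutamate receptor-associated protein. At SerRS-m a peak of 117 inside the gene, with 70.0 in replicate 1 and 50.9 in replicate 2, lay 491 bp from a TSS of Nagk. Another of 73.7 beyond its end, with 40.3 in replicate 1 and 42.5 in replicate 2, lay 274 bp from a TSS of Nagk. Thus 5 of the 7 summits lay within 500 bp of a TSS of another gene, a count with no background over all genes.

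HisRS differed from these. Its peak of 143 lies 2170 bp inside the gene, with 59.9 in replicate 1 and 83.1 in replicate 2, and no protein-coding TSS is nearer than that of HisRS, which the annotation also gives to a transcript of Bx, a LIM-domain gene.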
